A study of Caenorhabditis elegans with 12 samples.

Results

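The genes described here are 8 regulators and effectors of the oxidative, xenobiotic and hypoxia responses of Caenorhabditis elegans, chosen by name from the SKN-1, aryl hydrocarbon receptor and HIF-1 pathways. They are skn-1, wdr-23, gcs-1, ahr-1, aha-1, hif-1, egl-9 and vhl-1, out of 46987 features in the deposited count table. All 8 were found once by name, and all 8 were among the 16665 genes kept by the low-count filter. They were measured in poly(A) RNA of whole worms of the wild-type strain Bristol N2 at the L4 stage, the last larval stage, with about 1000 worms per library and growth at 25 °C. Exposed worms had lived from the embryo, for about 46 h, on agar with AO168=O at 400, 2000 or 10000 ng/g, and control worms on agar with none. The solvent, 0.01% ethanol, was in the plates of all 4 groups, and stocks were kept on Escherichia coli OP50. Each group held 3 libraries, described as independent biological replicates and labelled as 1 batch. AO168=O is the phosphate formed when the phosphite antioxidant AO168, an additive of plastics, is oxidised.

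SKN-1 is the worm counterpart of the mammalian NRF transcription factors and switches on detoxification and glutathione genes. WDR-23 is the substrate adaptor of a CUL-4 ubiquitin ligase that has SKN-1 degraded, and GCS-1 is the glutamate-cysteine ligase that makes the precursor of glutathione, the best known SKN-1 target. AHR-1 is the aryl hydrocarbon receptor. The worm protein, unlike the vertebrate one, is not known to bind dioxins, and it acts in the specification of neurons. AHA-1 is the partner that both AHR-1 and HIF-1 need to bind DNA. HIF-1, the hypoxia-inducible factor, is hydroxylated by the oxygen-dependent enzyme EGL-9 and then handed by VHL-1 to a ubiquitin ligase for degradation. These pathways are controlled in large part at the level of protein stability, which transcript counts do not measure.

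Total counts per library ran from 36897811 to 47211800. Replicate 1 at 400 ng/g stood apart from the other libraries at that dose: the chi-square per degree of freedom between its counts and those of replicate 2 was 255.7 and of replicate 3 154.8, against 12.56 to 113.7 for the other pairs of libraries within a group. Markers of stage and germ line also differed between groups. These are given as the mean log2 CPM of a list (CPM, counts scaled by the TMM-adjusted library size) less its control mean. Over 29 major sperm protein genes this mean spanned -0.49 to 0.68 among controls and lay lower in every library given 400 ng/g (-2.52 to -1.01) or 10000 ng/g (-1.84 to -0.83), with overlap at 2000 ng/g (-1.60 to -0.24). The same held for 12 oocyte and eggshell markers (controls -0.21 to 0.36, then -1.27 to -0.39, -0.86 to 0.24 and -1.25 to -0.60 with increasing dose) and for 10 germ-line markers (controls -0.18 to 0.21, then -0.57 to -0.20, -0.46 to 0.02 and -0.55 to -0.32). Over 10 neuron markers the mean lay higher than in all controls (-0.07 to 0.06) at 400 ng/g (0.22 to 0.42) and 10000 ng/g (0.31 to 0.41) and overlapped at 2000 ng/g (-0.05 to 0.27). For 8 intestine markers and 7 adult cuticle markers the mean at each dose overlapped with the controls. The adult cuticle mean ranged widely among controls, from -0.77 to 0.98. All 7 adult cuticle genes had a negative log2 fold change at each dose, with medians of -0.94, -0.54 and -1.24. At 400 and 10000 ng/g, 4 of the 7 lay below all controls, against 12.2% and 18.3% of all tested genes. At 2000 ng/g 0 of the 7 did, against 5.47%. Of these marker genes, 0 were at a count of 0 in any library. Their part in the results below was not tested. In whole worms, more or fewer cells of a type and more or less RNA per cell cannot be told apart.

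**Figure D1:**
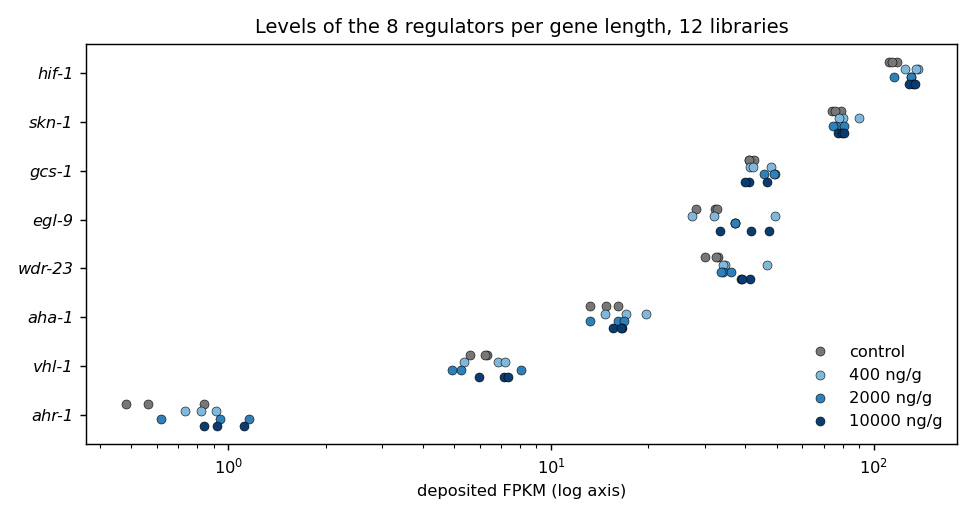
Deposited FPKM of the 8 genes (log axis) in 12 libraries, 1 point per library, coloured by dose. Levels run from at most 1.16 for ahr-1 to at least 111 for hif-1, and the spread within a gene is small beside the differences between genes, except among gcs-1, egl-9 and wdr-23, whose ranges overlap.

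Per gene length, in the FPKM values the authors deposited, the 8 transcripts differed widely in level. The transcript of hif-1 was the most abundant, with a mean FPKM of 125.8 over 12 libraries and a range from 111 to 137. It was followed by skn-1, with a mean FPKM of 78.9 and a range from 74.3 to 90.0, and the ranges of both genes did not overlap with each other or with that of the next gene. The level of gcs-1 averaged 44.0 FPKM, with a range from 39.7 to 49.5. Both inhibitors, egl-9 at 36.3 FPKM (range 27.3 to 49.5) and wdr-23 at 36.1 FPKM (range 29.9 to 46.5), were not separated in level: egl-9 was above wdr-23 in 7 of 12 libraries, and gcs-1 above egl-9 in 9 of 12. The shared partner aha-1 averaged 15.8 FPKM (range 13.2 to 19.7) and vhl-1 6.36 FPKM (range 4.93 to 8.08). The receptor ahr-1 was the lowest, with a mean of 0.829 FPKM and a range from 0.481 to 1.16. Its counts were 38 to 86 per library, so counting error alone gives a coefficient of variation of 12.6% at its mean count, against 0.812% for hif-1. The ranges of aha-1, vhl-1 and ahr-1 did not overlap with those of their neighbours in this order.

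**Figure D2:**
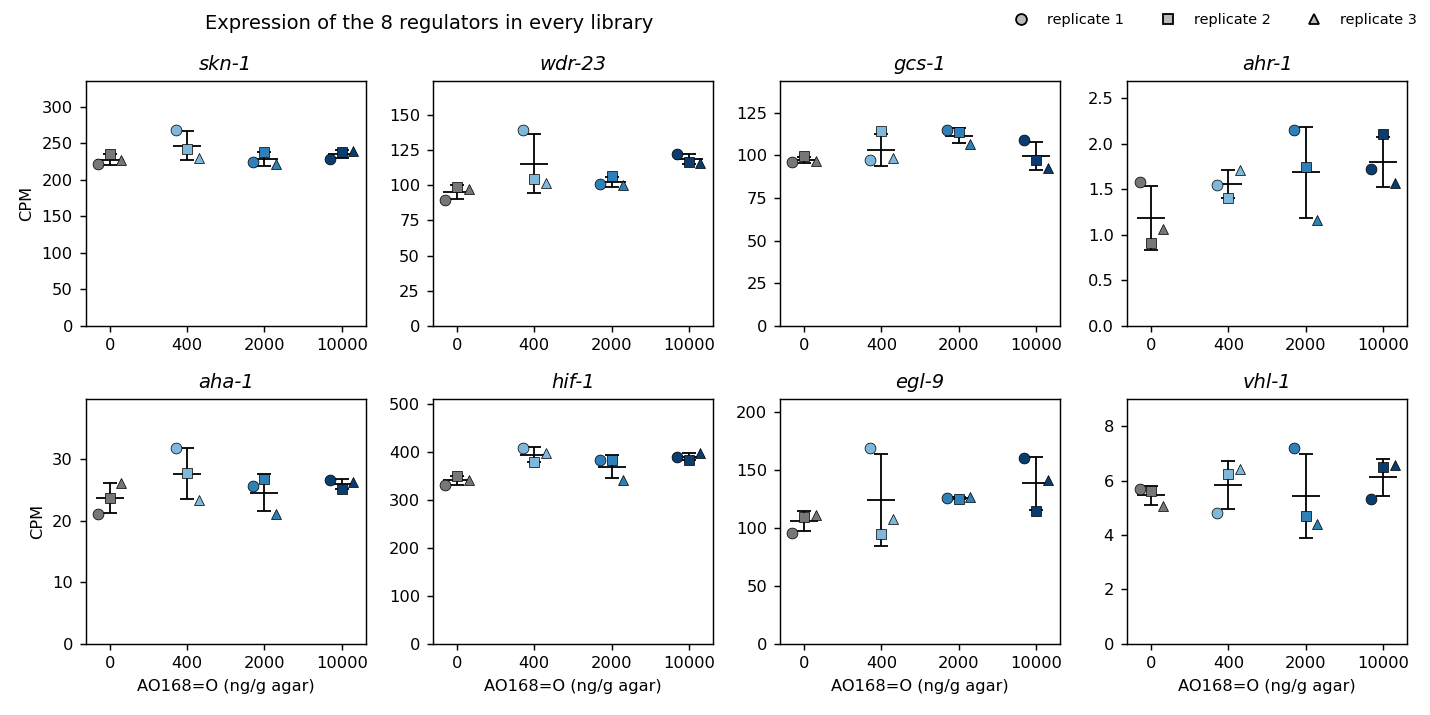
CPM of each gene (vertical axes from 0, a scale per gene) by dose of AO168=O. Points are libraries with a symbol per replicate number, and bars are the mean and SD of 3 libraries. All 9 exposed libraries lie above the 3 controls for wdr-23, and replicate 1 at 400 ng/g is the highest library for skn-1, wdr-23, aha-1, hif-1 and egl-9.

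Of the 8 genes, 0 passed an edgeR adjusted p of 0.05 in any of the 3 comparisons with control, in which the 3 doses share the same control libraries. Over all 16665 tested genes, 0% were called at 400 ng/g, 0% at 2000 ng/g and 0.252% at 10000 ng/g. With DESeq2, 0 of 8 were called at any dose, against 9.15%, 0.0201% and 6.25% of the genes given an adjusted p. At an unadjusted edgeR p under 0.05, the count was 2 of 8 at 400 ng/g (wdr-23 and hif-1), 0 of 8 at 2000 ng/g and 1 of 8 at 10000 ng/g (wdr-23), against 18.5%, 5.15% and 20.6% of all tested genes. The log2 fold changes were positive in 8 of 8 genes at 400 ng/g, 7 of 8 at 2000 ng/g and 8 of 8 at 10000 ng/g. Over all tested genes 57.0%, 45.6% and 48.7% were positive. The median log2 fold change of the 8 genes was 0.22, 0.11 and 0.18 at the 3 doses, against 0.05, -0.02 and -0.01 over all tested genes. All exposed libraries lay above all controls in 2 of 8 genes at 400 ng/g (wdr-23 and hif-1), 3 of 8 at 2000 ng/g (wdr-23, gcs-1 and egl-9) and 3 of 8 at 10000 ng/g (wdr-23, hif-1 and egl-9), against 8.19%, 6.04% and 16.0% of all tested genes. Below all controls were 0 of 8 at each dose, against 12.2%, 5.47% and 18.3%.

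**Figure D3:**
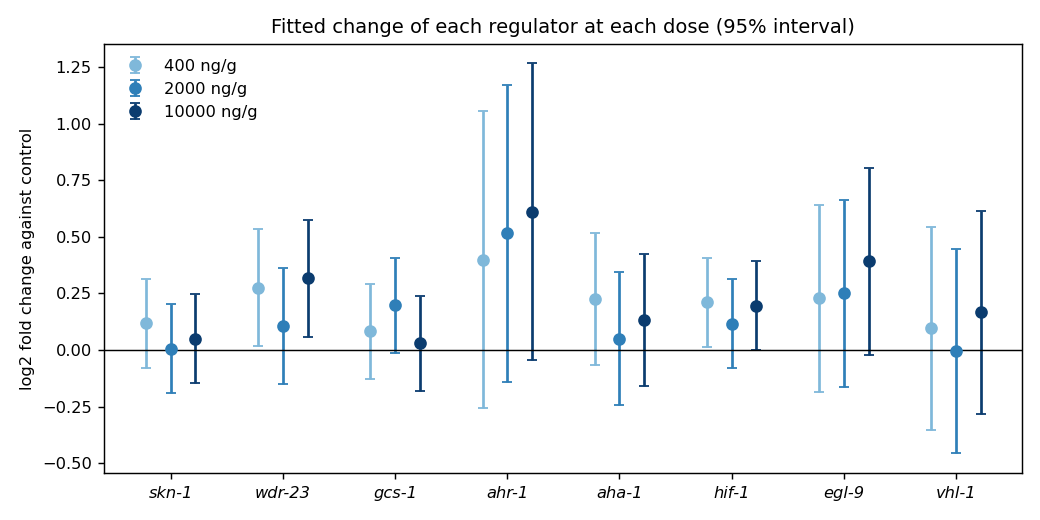
Log2 fold change against control of each gene at 400, 2000 and 10000 ng/g, from the edgeR fit over 12 libraries; bars are 95% intervals. Estimates lie between -0.01 and 0.61, and the intervals are narrowest for skn-1 and hif-1 and widest for ahr-1.

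In the SKN-1 arm, the transcript of the inhibitor wdr-23 (WBGene00008419, chromosome I, 7595776 to 7602221, plus strand) lay above control in every exposed library. Its level was 89.5, 98.8 and 97.6 CPM in control replicates 1, 2 and 3. It was 139.6, 104.9 and 101.6 CPM at 400 ng/g, 101.0, 106.6 and 100.2 CPM at 2000 ng/g, and 122.6, 117.0 and 116.2 CPM at 10000 ng/g. Each dose group was thus clear of the controls, and the lowest of the 9 exposed libraries was 100.2 CPM against a highest control of 98.8 CPM. The doses share the same controls, and the share of all tested genes with all 9 exposed libraries above them was not counted. The group means were 95.3 ± 5.05, 115.4 ± 21.0, 102.6 ± 3.47 and 118.6 ± 3.49 CPM (SD, n = 3) from control to the highest dose. The log2 fold change at 10000 ng/g was 0.32 ± 0.118 (SE; 95% interval 0.06 to 0.57), with an edgeR adjusted p of 0.173. Without replicate 1 at 400 ng/g, which takes part in this comparison only through the shared spread, scaling and filter, it was 0.32 ± 0.0721 and passed with an edgeR adjusted p of 0.042, where 3.09% of 16943 genes were called. In the other 11 fits that each left out a library it did not pass. At 400 ng/g the log2 fold change was 0.28 ± 0.118 (edgeR adjusted p = 0.231), and it was 0.11 without replicate 1, the highest of the 12 libraries (edgeR adjusted p = 0.402). In the full set of libraries, the value at 2000 ng/g was 0.11 ± 0.118, with a 95% interval from -0.15 to 0.36 (edgeR adjusted p = 0.908).

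The transcript of skn-1 itself (WBGene00004804, chromosome IV, 5651039 to 5660384, minus strand) was the steadiest of the 8 over the 12 libraries, with a coefficient of variation of 5.48%. It was measured at 220.8, 235.0 and 226.3 CPM in the controls and at 268.1, 242.0 and 230.2 CPM at 400 ng/g. With 2000 ng/g it was at 224.7, 238.4 and 221.3 CPM, and at 10000 ng/g at 228.6, 238.4 and 238.9 CPM. The groups overlapped at every dose, with 5 of 9 exposed libraries above the highest control, and replicate 1 at 400 ng/g was the highest of the 12. The largest log2 fold change was 0.12 ± 0.0904 at 400 ng/g (edgeR adjusted p = 0.55), and it was 0.05 without replicate 1 at that dose (edgeR adjusted p = 0.717). In the full set of libraries, the value at 10000 ng/g was 0.05 ± 0.0904 with a 95% interval from -0.15 to 0.25 (edgeR adjusted p = 0.781). The span of that gene overlaps those of csn-5 and clec-178 on the opposite strand. Whether exons overlap was not checked, and the strand setting of the counting is not given in the sources used here. Both csn-5 and clec-178 are lower in level than skn-1, with control means of 33.5 and 6.44 FPKM.

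The effector gcs-1 (WBGene00001527, chromosome II, 9035562 to 9038301, minus strand) had its highest group mean at 2000 ng/g. Its controls were tightly grouped, at 96.1, 99.5 and 96.9 CPM. The group at 2000 ng/g was measured at 115.01, 113.7 and 106.5 CPM, all above the controls. At 400 ng/g the values were 97.2, 114.2 and 98.5 CPM, and at 10000 ng/g 108.8, 97.1 and 92.7 CPM, so both of those groups overlapped with the controls. The log2 fold change at 2000 ng/g was 0.20 ± 0.0963 (95% interval -0.01 to 0.41) and did not pass (edgeR adjusted p = 0.855). The value at 10000 ng/g was 0.03 ± 0.0963, with an interval from -0.18 to 0.24 (edgeR adjusted p = 0.882).

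A list of 20 SKN-1 target genes, of which gcs-1 is 1, and a list of 21 regulators, of which skn-1 and wdr-23 are 2, were set beside these genes. Of 19 target genes tested, 0 passed at any dose with edgeR, and 0 with DESeq2. At an unadjusted edgeR p under 0.05 there was 1 at 400 ng/g, 1 at 2000 ng/g and 3 at 10000 ng/g, shares near those of all tested genes or under them. Their median log2 fold change was 0.17, 0.03 and -0.15 at the 3 doses. The mean over these targets ran from -0.43 to 0.38 on the log2 scale in the controls, a range that held all 6 libraries at 2000 and 10000 ng/g. Among the targets, gst-10, a glutathione S-transferase, was at 84.6, 51.8 and 33.0 CPM in the controls and at 33.2, 31.7 and 46.4 CPM at 10000 ng/g, and was chosen here after its values were seen, as an example of that spread. The target with the smallest p was dhs-8, a short-chain dehydrogenase gene, at 2.36 ± 0.362 CPM in the controls and 1.499 ± 0.252 CPM at 10000 ng/g (log2 fold change -0.65 ± 0.253, edgeR adjusted p = 0.187).

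Of the 21 SKN-1 pathway regulators, 0 passed with edgeR at any dose, and 16, 14 and 15 were positive at 400, 2000 and 10000 ng/g. DESeq2 called 1 higher at 400 ng/g and 1 higher at 10000 ng/g, where 1.44% and 3.06% of genes were called higher. The one at 400 ng/g was akt-2, for a kinase of the insulin pathway that phosphorylates SKN-1, named after its values were seen. Its log2 fold change there was 0.45 ± 0.118, with an adjusted p of 0.0639 in edgeR and 0.0175 in DESeq2. At 2000 and 10000 ng/g akt-2 overlapped with the controls, at 0.27 ± 0.118 and 0.09 ± 0.118 (edgeR adjusted p = 0.855 and 0.668). The regulator with the smallest p was pmk-1, for the p38 MAP kinase that phosphorylates SKN-1. It was measured at 21.6, 23.2 and 20.2 CPM in the controls and at 28.0, 28.8 and 29.0 CPM at 10000 ng/g, which do not overlap. The log2 fold change was 0.40 ± 0.0989, with an adjusted p of 0.0964 in edgeR and 0.0176 in DESeq2. In edgeR at 400 ng/g it was 0.32 ± 0.0989 (adjusted p = 0.0907), with all 3 exposed libraries, at 29.8, 26.2 and 25.3 CPM, above the controls.

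In the aryl hydrocarbon receptor arm, ahr-1 (WBGene00000096, chromosome I, 9522550 to 9531132, plus strand) had the largest log2 fold change of the 8 genes at each dose and the largest error. Its counts were 57, 38 and 41 in the controls, 81, 48 and 72 at 400 ng/g, 82, 68 and 44 at 2000 ng/g, and 81, 86 and 59 at 10000 ng/g. Scaled to library size these are 1.58, 0.905 and 1.06 CPM in the controls, 1.55, 1.40 and 1.71 CPM at 400 ng/g, 2.15, 1.75 and 1.16 CPM at 2000 ng/g, and 1.72, 2.11 and 1.57 CPM at 10000 ng/g. Control replicate 1, at 1.58 CPM, lay inside the range of every exposed group. The group means followed the order of dose, at 1.18 ± 0.352, 1.55 ± 0.154, 1.69 ± 0.501 and 1.80 ± 0.278 CPM (SD, n = 3). The log2 fold change at 10000 ng/g was 0.61 ± 0.3, with a 95% interval from -0.04 to 1.27 (edgeR adjusted p = 0.269). Over dose order the slope was 0.19 ± 0.0927 on the log2 scale per step, and it did not pass (edgeR adjusted p = 0.422).

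On the opposite strand, ahr-1 overlaps cylc-2, which was higher than ahr-1 in every group. The control mean was 16.9 FPKM for cylc-2, and the group means were 4.59, 8.92 and 8.56 FPKM at 400, 2000 and 10000 ng/g. This overlap is of whole gene spans, and whether exons of both genes overlap was not checked. Without the strand setting, reads of both genes in any shared counted stretch cannot be told apart. Whether such reads added to the ahr-1 counts was not tested. The mean of cylc-2 was lower in each exposed group than in the controls, while that of ahr-1 was higher.

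The partner gene aha-1 (WBGene00000095, chromosome I, 10193925 to 10196997, minus strand) was measured at 21.2, 23.8 and 26.1 CPM in the controls, and at 31.8, 27.8 and 23.4 CPM at 400 ng/g. Its values at 2000 ng/g were 25.7, 26.8 and 21.2 CPM, and at 10000 ng/g at 26.6, 25.1 and 26.3 CPM. Each exposed group overlapped with the controls, and the highest value was again replicate 1 at 400 ng/g. The log2 fold changes were 0.22 ± 0.134, 0.05 ± 0.134 and 0.13 ± 0.134 in order of dose, with edgeR adjusted p of 0.422, 0.969 and 0.587. Without replicate 1 the value at 400 ng/g was 0.11 (edgeR adjusted p = 0.622). The span of the gene overlaps that of mrpl-34, a mitochondrial ribosomal protein gene, on the opposite strand, and whether exons overlap was not checked. The control mean of mrpl-34, at 21.6 FPKM, was above that of aha-1, at 14.7 FPKM. Whether reads of mrpl-34 added to the aha-1 counts was not tested.

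Among 9 tested genes of the bHLH-PAS family and of receptor partners, 3 of which belong to the 8, 0 passed at any dose with edgeR or DESeq2, and the median log2 fold change was 0.21, -0.02 and 0.13. The one with the smallest p was cdc-37, for a cochaperone of HSP90, at 148.5 ± 20.8 CPM in the controls and 110.1 ± 3.76 CPM at 10000 ng/g (log2 fold change -0.43 ± 0.179, edgeR adjusted p = 0.209). Of 11 genes expressed in neurons in which ahr-1 acts, such as the oxygen-sensing neurons, 10 were positive at 400 and 10000 ng/g and 6 at 2000 ng/g, with medians of 0.35, 0.62 and 0.07, and 0 passed with edgeR. Over all tested genes 57.0%, 48.7% and 45.6% were positive in that order. Apart from flp-8, at 17.3 CPM, the control means of these 11 genes were at most 2.04 CPM, so most were low in count. In 4 of 11 at 10000 ng/g the groups did not overlap, all higher, against 16.0% of all tested genes, and in 0 of 11 at 400 and at 2000 ng/g, against 8.19% and 6.04%. The one with the smallest p was gcy-35, for a soluble guanylyl cyclase, at 1.47, 2.64 and 2.02 CPM in the controls and 2.98, 4.32 and 3.39 CPM at 10000 ng/g. The log2 fold change was 0.80 ± 0.238, with an adjusted p of 0.13 in edgeR and 0.0355 in DESeq2. The list of pan-neuronal markers was above control in the same libraries, as given above, and 9 of those 10 markers did not overlap with control at 10000 ng/g.

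In the HIF-1 arm, hif-1 (WBGene00001851, chromosome V, 20780407 to 20785260, plus strand) was above all controls in 8 of 9 exposed libraries. The share of all tested genes that reached as many was not counted. It was measured at 331, 349.9 and 341 CPM in the controls and at 408, 378 and 397 CPM at 400 ng/g. At 2000 ng/g the values were 383, 383 and 341 CPM, the last of them inside the control range. Those at 10000 ng/g were 389.9, 384 and 397 CPM. The groups at 400 and 10000 ng/g were therefore clear of the controls, and that at 2000 ng/g was not. The log2 fold changes were 0.21 ± 0.0905, 0.12 ± 0.0905 and 0.20 ± 0.0905, with edgeR adjusted p of 0.235, 0.867 and 0.246. The 95% interval at 10000 ng/g had its upper end at 0.39 and its lower end just under 0. This was the best-counted of the 8 genes, with 11972 to 21293 counts per library.

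The prolyl hydroxylase gene egl-9 (WBGene00001178, chromosome V, 10468517 to 10476915, plus strand) varied most between libraries among the 7 genes other than ahr-1, by 1.79-fold from lowest to highest. It was at 95.8, 109.8 and 111.7 CPM in the controls, and at 169.1, 94.6 and 108.1 CPM at 400 ng/g. At 2000 ng/g all 3 libraries lay together above the controls, at 125.6, 125.1 and 126.6 CPM. At 10000 ng/g they lay above the controls again but were spread, at 160.2, 114.8 and 141.2 CPM. Its group means also stood in the order of dose, at 105.8 ± 8.68, 123.9 ± 39.7, 125.8 ± 0.768 and 138.8 ± 22.8 CPM (SD, n = 3). The log2 fold changes were 0.23 ± 0.19, 0.25 ± 0.19 and 0.39 ± 0.19, with edgeR adjusted p of 0.589, 0.863 and 0.265. Without replicate 1 at 400 ng/g, the value at that dose turned to -0.06 (edgeR adjusted p = 0.791), and the value at 10000 ng/g was 0.40 with a smaller error of 0.12 (edgeR adjusted p = 0.0837). The slope over dose order was 0.12 ± 0.0571 per step (edgeR adjusted p = 0.421).

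The transcript of vhl-1 (WBGene00006922, chromosome X, 11307356 to 11308518, plus strand) showed no separation between groups. It was measured at 5.70, 5.62 and 5.05 CPM in the controls, at 4.83, 6.25 and 6.43 CPM at 400 ng/g, at 7.19, 4.69 and 4.42 CPM at 2000 ng/g, and at 5.34, 6.48 and 6.56 CPM at 10000 ng/g. The libraries at 2000 ng/g included both the highest and the lowest of the 12. The log2 fold changes were 0.10 ± 0.206, -0.01 ± 0.207 and 0.17 ± 0.206 (edgeR adjusted p = 0.864, 0.997 and 0.665), with a 95% interval from -0.28 to 0.62 at 10000 ng/g.

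Between the 3 doses, 0 of the 8 genes differed with edgeR in any of the 3 comparisons, where 0%, 0.0960% and 0.0480% of all tested genes were called for 2000 against 400, 10000 against 400 and 10000 against 2000 ng/g. The smallest edgeR adjusted p was 0.543, for wdr-23 at 10000 against 2000 ng/g, with a log2 fold change of 0.21 ± 0.118. That gene and hif-1 were the 2 of 8 whose libraries at 10000 ng/g were all above those at 2000 ng/g, against 15.4% of all tested genes. Over dose order, 0 of 8 slopes passed, and 0.00600% of all tested genes did. At an unadjusted p under 0.05 the count was also 0 of 8 in these 4 tests, where 9.26%, 9.50%, 10.2% and 12.3% of all tested genes lay under it.

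**Figure D4:**
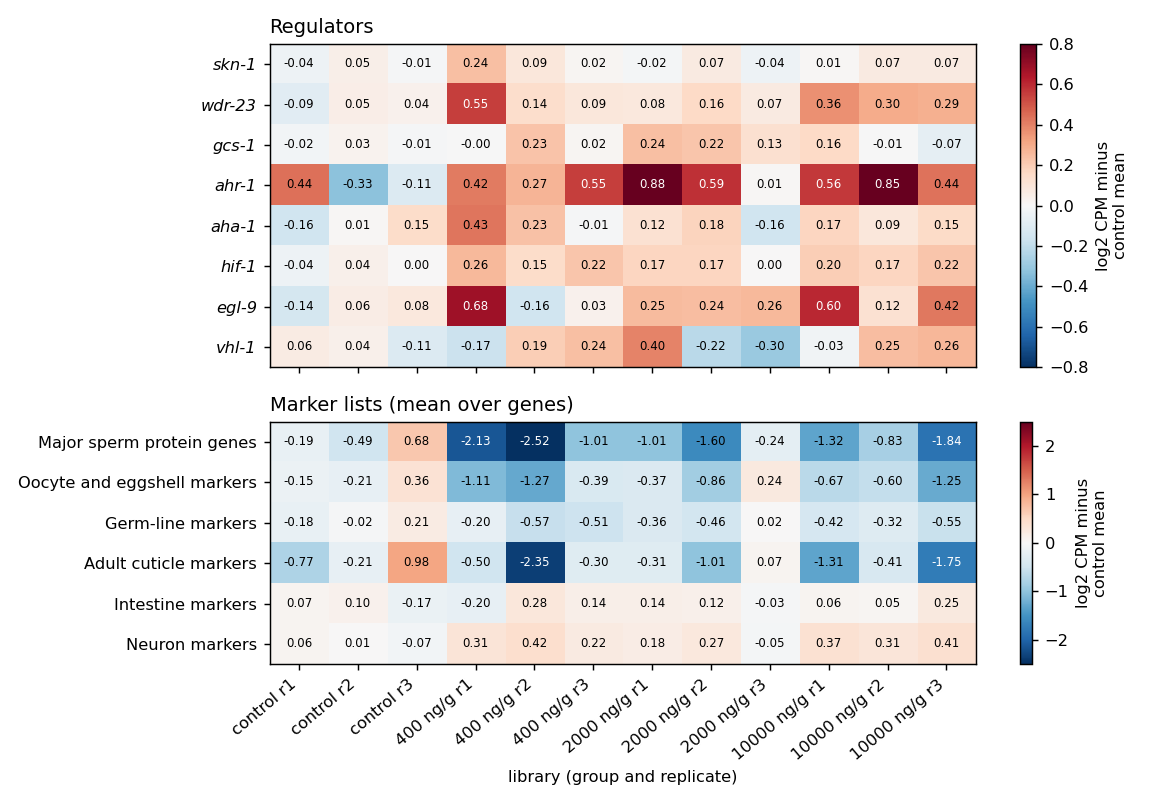
Log2 CPM minus the control mean in each of the 12 libraries, for the 8 genes (top) and as the mean over each marker list (bottom), each with its own colour scale. The row of wdr-23 is positive in all 9 exposed libraries, and the largest values of egl-9 are in replicate 1 at 400 ng/g and replicate 1 at 10000 ng/g.

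Genes that HIF-1 is known to control were followed as a list of 15, of which egl-9 is 1, since HIF-1 activates transcription of its own inhibitor. The list includes genes for sulfide and cysteine handling and, with opposite known regulation in worms, the ferritin genes ftn-1 and ftn-2, which HIF-1 represses. All 15 were tested, and 0 passed with edgeR at any dose. At 10000 ng/g, 14 of 15 were positive, ftn-1 and ftn-2 among them, with a median log2 fold change of 0.45 against -0.01 over all tested genes, and 8 of 15 had an unadjusted edgeR p under 0.05 in the higher direction, against 9.35% of all tested genes. At 400 and 2000 ng/g that count was 4 and 1 of 15, against 6.77% and 2.14%. The 4 were nhr-57, ethe-1, cdo-1 and ftn-1, and the 1 was cdo-1. In 9 of 15 all libraries at 10000 ng/g lay above all controls, against 16.0% of all tested genes. At 400 and 2000 ng/g the medians were 0.25 and 0.25, and 3 and 4 of 15 lay above all controls, against 8.19% and 6.04%. The list's mean log2 CPM less its control mean was -0.01 to 0.02 among controls. With 400 ng/g it overlapped with the controls, at 0.78, -0.04 and 0.17 in replicates 1, 2 and 3. It spanned 0.14 to 0.32 with 2000 ng/g and 0.38 to 0.71 with 10000 ng/g. All 6 libraries at 2000 and 10000 ng/g thus lay above the controls.

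**Figure D5:**
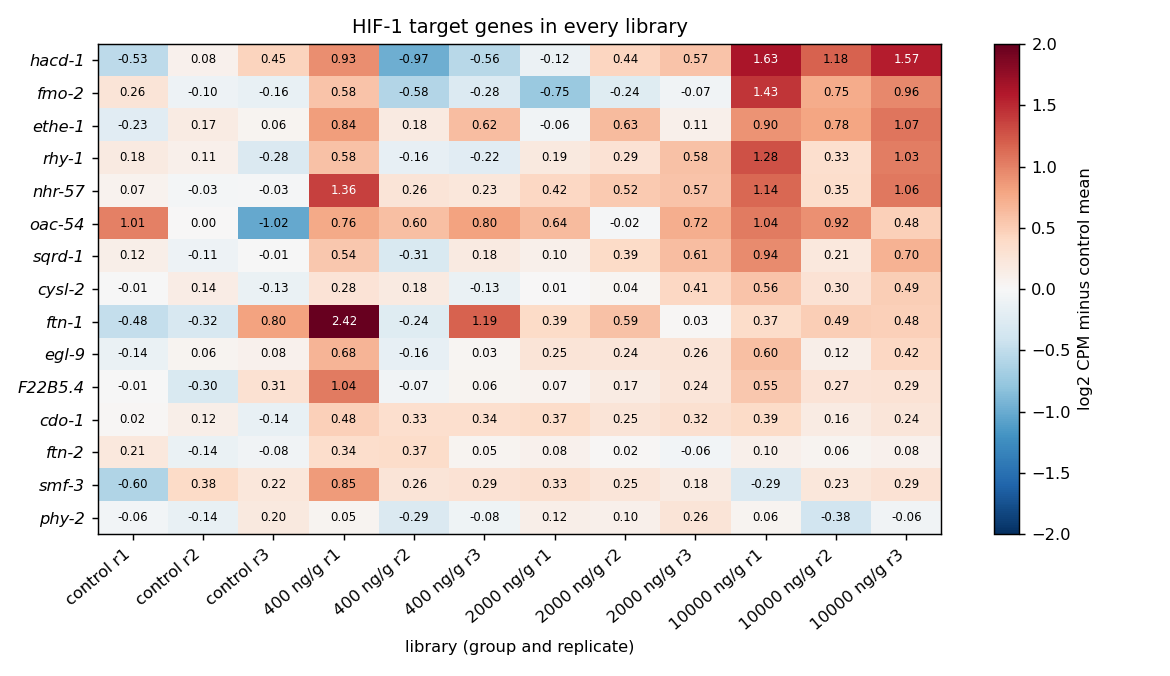
Log2 CPM minus the control mean of 15 HIF-1 target genes in each of the 12 libraries, ordered by their mean at 10000 ng/g. The top rows, hacd-1, fmo-2, ethe-1, rhy-1 and nhr-57, are positive in all 3 libraries at 10000 ng/g, and replicate 1 at 400 ng/g is also high in them.

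The HIF-1 target with the smallest p was ethe-1, for a mitochondrial persulfide dioxygenase that clears sulfide. It was at 4.59, 6.05 and 5.60 CPM in the controls and 10.1, 9.28 and 11.3 CPM at 10000 ng/g, with a log2 fold change of 0.92 ± 0.219 and an adjusted p of 0.0934 in edgeR and 0.0069 in DESeq2. The gene rhy-1, for a membrane protein that restrains HIF-1 and is itself a target, was at 119.8, 114.1 and 87.0 CPM in the controls and 257, 133 and 216 CPM at 10000 ng/g. Its log2 fold change was 0.92 ± 0.259, with an adjusted p of 0.119 in edgeR and 0.0185 in DESeq2. Of the 12 tested HIF-1 pathway regulators, a list that holds rhy-1 and 4 of the 8 genes, 0 passed with edgeR, and the median log2 fold change was 0.12, 0.03 and 0.14 at the 3 doses. At 10000 ng/g, 4 of these 12 lay above all controls and 3 below, against 16.0% and 18.3% of all tested genes. DESeq2 called 1 of them higher at that dose, rhy-1, where 3.06% of genes were called higher.

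The other targets whose groups did not overlap at 10000 ng/g are named here after their values were seen. The nuclear receptor gene nhr-57, a common reporter of HIF-1 activity, was at 24.35, 22.7 and 22.8 CPM in the controls and 51.5, 29.6 and 48.5 CPM at 10000 ng/g, and the difference, on the log2 scale, was 0.89 ± 0.279 (adjusted p = 0.138 in edgeR). It was also at 60.0 CPM in replicate 1 at 400 ng/g, the highest of the 12 libraries. For the flavin monooxygenase gene fmo-2 the difference was 1.06 ± 0.286 (adjusted p = 0.111 in edgeR). For hacd-1, a hydroxyacyl-CoA dehydrogenase gene, it was 1.419 ± 0.422 (adjusted p = 0.128 in edgeR). For cysl-2, a cysteine synthase relative, sqrd-1, for sulfide-quinone oxidoreductase, and cdo-1, for cysteine dioxygenase, the values were 0.45 ± 0.147, 0.65 ± 0.221 and 0.26 ± 0.0991 (edgeR adjusted p = 0.146, 0.156 and 0.178). The known target phy-2, for a collagen prolyl hydroxylase subunit, was the 1 member with a negative value at 10000 ng/g, at -0.12 ± 0.139 (edgeR adjusted p = 0.636).

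The ferritin genes, also named after their values were seen, had positive values, opposite to their known repression by HIF-1. For ftn-1 the control libraries were at 5.84, 6.52 and 14.3 CPM, and those at 400 ng/g at 43.9, 6.89 and 18.7 CPM, which overlap. Its log2 fold change at 400 ng/g was the largest of the 15, at 1.39 ± 0.519 (edgeR adjusted p = 0.166), and at 10000 ng/g it was 0.33 ± 0.514 (edgeR adjusted p = 0.738). For ftn-2 it was 0.25 ± 0.12 at 400 ng/g and 0.07 ± 0.12 at 10000 ng/g (edgeR adjusted p = 0.286 and 0.756).

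DESeq2 called 4 of the 15 targets higher at 10000 ng/g, ethe-1, fmo-2, rhy-1 and nhr-57, where 3.06% of genes were called higher, and 1 at 400 ng/g, cdo-1, where 1.44% were. Without replicate 1 at 400 ng/g, edgeR called 5 of 15 higher at 10000 ng/g, against 1.98% of all genes: hacd-1 (adjusted p = 0.024), nhr-57 (0.0266), fmo-2 (0.0284), ethe-1 (0.0429) and rhy-1 (0.0436). In each of the other 11 fits that left out a library, 0 of 15 passed. Neuron markers were above control, and sperm, oocyte and germ-line markers below it, in the same 3 libraries at 10000 ng/g. Their part in these values was not tested.

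In the list of 15 genes of glutathione synthesis and recycling, which holds gcs-1, 0 passed with edgeR at any dose, and the medians were 0.08, 0.01 and -0.10. In the list of xenobiotic nuclear receptors and cyp-35 P450 genes, 0 of 14 passed with edgeR or DESeq2, with medians of -0.03, 0.02 and -0.20. These medians do not show moves in both directions. At 10000 ng/g, 4 of the 14 lay above all controls and 5 below, against 16.0% and 18.3% of all tested genes. Replicate 1 at 400 ng/g was the lowest of the 12 libraries in the mean of that list, at -0.88 on the log2 scale. Its gene with the smallest p was nhr-48, related to the vertebrate xenobiotic receptors, at 46.9, 47.7 and 42.8 CPM in the controls and 54.4, 57.5 and 53.9 CPM at 400 ng/g (log2 fold change 0.27 ± 0.0906, edgeR adjusted p = 0.119).

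The genes whose log2 CPM tracked each of the 8 most closely over the 12 libraries were found by Pearson's r among genes with a mean of at least 5 CPM. Each r was picked as 1 of the 2 highest among 10502 genes, or 10503 for ahr-1. It is a description of these libraries, which also differ in depth and in markers of stage and germ line. The genes closest to wdr-23 were F59C12.3 (r = 0.97, and 0.96 without replicate 1 at 400 ng/g) and pqn-25 (r = 0.95). Next to skn-1 stood ceeh-1, an epoxide hydrolase gene (r = 0.96, and 0.88 without that library), and Y8A9A.2 (r = 0.96). The gene closest to hif-1 was ptr-13 (r = 0.96), then acl-5 (r = 0.94), and those closest to egl-9 were vps-11 (r = 0.94) and T22C1.6 (r = 0.93). For aha-1 they were ztf-17 (r = 0.93) and pho-4 (r = 0.91), and for vhl-1 vab-3 and gfrp-1 (both r = 0.90). The values were lowest for ahr-1, with let-756 (r = 0.89) and twk-49 (r = 0.84), and for gcs-1, with iars-2 (r = 0.88) and igcm-1 (r = 0.87). None of these 16 is another of the 8 genes.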

How the data were processed

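For the 12 libraries, the authors deposited raw read counts per gene, and FPKM values in a second file. The tools named in the submitters' processing notes are HISAT2 2.2.1, CASAVA, DESeq2 1.42.0 and featureCounts 2.0.6. No source used here gives their settings, the strand setting, the treatment of multiply mapped reads or the genome build. Coordinates are those in the deposited files, and 46926 features have the same position in WBcel235, Ensembl release 115. The deposited FPKM equal counts per gene length and per library size times a factor from 0.866 to 1.11. Unnamed features, 61 in all, held at most 0.0249% of counts.

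The deposited counts were tested with edgeR 4.0.16 under R 4.3.3 (two-sided quasi-likelihood test, TMM scaling, filterByExpr), in 1 fit over 12 libraries with a mean per group, and in a second with dose order as a linear term. P-values were adjusted by Benjamini-Hochberg over 16665 genes, with a threshold of 0.05. Standard errors (SE) are the log2 fold change over the square root of F. Intervals use the t quantile at the fit's degrees of freedom. CPM use TMM-scaled library sizes, and log2 CPM a prior count of 2. The fit was also run on simulated counts with planted log2 changes of 1 or 2 in either direction, larger than those of the genes described here. The simulation held no outlying library and no difference in markers of stage or germ line. It does not measure how well changes as small as theirs are found. Replicates are independent samples per the labels. An exact test of 3 against 3 cannot go below p = 0.1, so none was run on single values.

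The members and gene lists were chosen with earlier results of these data known. All 8 members are named. From each list, genes past the threshold were to be named, and where none passed, the gene with the smallest p over the 3 doses. One listed gene, lrg-1, matched no name. Alternatives were DESeq2 1.42.0, RLE factors, a replicate block, dropping the low-count filter, log2 of dose plus 100 ng/g as the trend term, and leaving out each library. The counts of HIF-1 targets under these alternatives were added after seeing the data.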

Additional observations from a re-analysis of the deposited data

How the results depend on the processing

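The 8 genes gave 0 calls in every comparison under RLE factors, no low-count filter, the replicate block, DESeq2 and the trend over log2 dose, and leaving out each library gave 0 to 1 call at 10000 ng/g, the 1 being wdr-23 without replicate 1 at 400 ng/g. Over the fits that left out a library, its adjusted p ran from 0.042 to 0.376. Counts over all genes moved much more. At 400 ng/g, 0 genes passed in edgeR, 930 with no low-count filter, 1565 with DESeq2 and 0 to 903 when libraries were left out. At 2000 ng/g DESeq2 called 5. At 10000 ng/g, 42 passed in edgeR, 979 with DESeq2 and 4 to 523 when libraries were left out. For 2000 against 400 ng/g DESeq2 called 1. For 10000 against 400 ng/g, 16 passed, 25 with no filter, 135 with DESeq2 and 0 to 740 when libraries were left out. For 10000 against 2000 ng/g, 8 passed, 123 with DESeq2 and 0 to 79 when libraries were left out. For the trend, 1 passed, 3 with no filter, 160 with DESeq2 and 0 to 12 when libraries were left out. Of the HIF-1 targets, DESeq2 called 1 at 400 ng/g and 4 at 10000 ng/g, and leaving out libraries gave 0 to 5 at 10000 ng/g. The cause of these differences was not tested.

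Of 18 same-numbered pairs of libraries, 5 had deviations from their group means correlated over 0.1, with a range from -0.471 to 0.339. Differently numbered pairs were not compared, so these values cannot decide whether the replicate numbers pair the libraries. With the replicate block, 579 genes passed at 400 ng/g, 12 at 10000 ng/g, 4 for 10000 against 400 ng/g and 0 for the trend, and 0 of the 8 genes passed.

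Small log2 fold changes turned sign, none of them past the threshold. For vhl-1 at 2000 ng/g the value was 0.0085 with RLE factors and 0.0084 with DESeq2. Leaving out each library gave ranges that held both signs. At 400 ng/g these were egl-9 -0.065 to 0.41. With 2000 ng/g these were aha-1 -0.016 to 0.15, vhl-1 -0.26 to 0.12 and skn-1 -0.027 to 0.029. With 10000 ng/g these were gcs-1 -0.040 to 0.10. For 2000 against 400 ng/g these were wdr-23 -0.24 to 0.0090, egl-9 -0.15 to 0.33, vhl-1 -0.36 to 0.027 and ahr-1 -0.10 to 0.33. For 10000 against 400 ng/g these were skn-1 -0.092 to 0.0022, aha-1 -0.17 to 0.030, hif-1 -0.048 to 0.017, vhl-1 -0.044 to 0.18, wdr-23 -0.026 to 0.21, gcs-1 -0.12 to 0.022 and egl-9 -0.00069 to 0.46. For 10000 against 2000 ng/g these were ahr-1 -0.12 to 0.31 and aha-1 -0.015 to 0.15. For the trend over dose order these were skn-1 -0.0031 to 0.014.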

Other observations

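The gene cbs-2, for a cystathionine beta-synthase, had the smallest p in the list of glutathione synthesis and recycling genes. It was at 25.1, 22.3 and 34.7 CPM in the controls, 10.4, 9.57 and 12.8 CPM at 400 ng/g, 13.6, 13.9 and 23.5 CPM at 2000 ng/g, and 13.3, 15.8 and 9.68 CPM at 10000 ng/g. The groups at 400 and 10000 ng/g lay below all controls, as did 12.2% and 18.3% of all tested genes. The log2 fold changes were -1.32 ± 0.255 and -1.08 ± 0.254, with adjusted p of 0.0523 and 0.0934 in edgeR and of 0.000128 and 0.00402 in DESeq2. Sperm, oocyte and germ-line markers lay below all controls in the same 6 libraries, and their part in this was not tested.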
